A study of Mus musculus with 4 samples.

Results

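The immediate early genes described here are Fos, Fosb, Jun, Junb, Egr1, Nr4a1, Dusp1, Zfp36, Ier2 and Ier3. They were taken by name, and were chosen with earlier results of these data known. All probe sets that the platform annotation assigns to 1 of these symbols alone were used. This gave 11 probe sets for 10 genes, out of 18193 named genes on the array. Jun had 2 probe sets and each of the other genes 1. RNA came from 4 unstimulated populations of sorted mouse progenitors of a mixed C57BL6J/129SV strain: Trib1-/- GMP, wild-type GMP, Trib1-/- MDP and wild-type MDP. GMP are granulocyte monocyte progenitors, and MDP is the label of cells whose type is given as macrophage dendritic cell. Each group was 1 Affymetrix array, and this number limits the precision: the differences below have no replicates behind them and were not tested. The sources used here give neither the sort gates nor how many animals an array stands for. All values are log2 RMA values, and a difference of 1 is a 2-fold difference.

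Immediate early genes are switched on within minutes of a signal, without new protein synthesis, mostly through the MAP kinase pathways acting on serum response factor and its ternary complex partners, and through CREB. Their transcripts are short-lived. Several of them encode transcription factors that carry the signal on, and others encode proteins that shut it down again. In myeloid cells AP-1 and Egr1 take part in growth factor responses and in monocyte and macrophage differentiation, and the same genes are also known to respond to cell stress.

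The array medians ran from 3.27 to 3.31, and the median of all values, 3.29, served as the floor below which a value lies near background. Trib1, the deleted gene, read 5.19 in Trib1-/- GMP and 4.85 in wild-type GMP with one probe set and 5.10 and 4.95 with the other. In MDP it read 4.71 (Trib1-/-) and 5.13 (wild type), and 5.56 and 5.99. These probe sets therefore do not check the genotype labels, and every direction below rests on those labels. Of 8 GMP markers, 6 reached the floor in Trib1-/- MDP and 7 in wild-type MDP, and all 8 on both GMP arrays; of 7 MDP markers, 6 did on each of the 4 arrays, so these counts do not separate the populations. The levels differed: the GMP markers summed on the linear scale to 1269 and 1355 in Trib1-/- and wild-type MDP against 6668 and 7516 in the GMP of the same genotypes, and the MDP markers to 883 and 860 against 475 and 529. Among the MDP markers were Csf1r (7.81 in Trib1-/- and 7.82 in wild-type MDP) and Irf8 (7.77 and 7.81). Of the 7 MDP markers, 2 read lower in MDP than in GMP within both genotypes, Kit and Cd34, which are in the GMP list as well. Kit, which marks early progenitors, did not reach the floor in MDP (2.69 in Trib1-/- and 2.43 in wild type). Cd34 read 6.50 in Trib1-/- MDP and 6.16 in wild-type MDP, against 7.19 and 7.52 in the GMP of the same genotypes.

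AP-1 is a dimer of a Fos and a Jun protein. Fos, whose product pairs with Jun proteins to bind DNA, read 8.82 in Trib1-/- GMP and 9.67 in wild-type GMP, and 10.03 in Trib1-/- MDP and 10.32 in wild-type MDP. Fosb, a close relative of Fos, read 3.75 in Trib1-/- GMP and 4.47 in wild-type GMP, and 5.04 in Trib1-/- MDP and 5.18 in wild-type MDP. Both genes therefore ran in the same order over the arrays, with Trib1-/- GMP lowest, wild-type GMP next and both MDP arrays highest. The MDP genotypes differed by -0.29 for Fos and -0.13 for Fosb, less in size than the SD between probe sets of 1 gene on these arrays (0.383 for the MDP genotypes, over 4922 genes). In GMP the differences between genotypes, -0.84 for Fos and -0.72 for Fosb, exceeded the corresponding SD of 0.372. That SD does not include differences between animals, sorts or arrays.

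Jun, the main partner of Fos, varied least of the genes measured above the floor. Its brighter probe set read 7.13 in Trib1-/- GMP and 7.30 in wild-type GMP, and 6.77 in Trib1-/- MDP and 7.02 in wild-type MDP. Its other probe set read 6.43 in Trib1-/- GMP and 6.77 in wild-type GMP, and 6.49 in Trib1-/- MDP and 6.44 in wild-type MDP. All of its differences between genotypes, from -0.35 to 0.05 over both probe sets, were within the SD between probe sets. Junb, which encodes a Jun protein that often restrains Jun, was the only gene below the floor on every array. It read 2.45 in Trib1-/- GMP and 2.40 in wild-type GMP, and 2.95 in Trib1-/- MDP and 3.06 in wild-type MDP, so it enters none of the counts below and 9 of the 10 genes do.

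Egr1 encodes a zinc finger transcription factor that is known to promote monocyte differentiation. It read 8.42 in Trib1-/- GMP and 9.01 in wild-type GMP, and 8.25 in Trib1-/- MDP and 8.23 in wild-type MDP. Wild-type GMP stood highest, and the other arrays lay close together. Nr4a1, the nuclear receptor also called Nur77, needed for the patrolling monocytes of the mouse, reached the floor on 1 array only. It read 2.22 in Trib1-/- GMP and 2.68 in wild-type GMP, and 3.83 in Trib1-/- MDP and 3.22 in wild-type MDP. When its values below the floor were set to it, its GMP difference of -0.46 became 0, and its MDP difference of 0.61 became 0.54.

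The genes that feed back on the signal stood furthest apart between the GMP genotypes. Dusp1 encodes a phosphatase that inactivates the p38, JNK and ERK kinases. It read 7.85 in Trib1-/- GMP and 9.05 in wild-type GMP, and 7.94 in Trib1-/- MDP and 8.58 in wild-type MDP. Both Trib1-/- arrays were thus below both wild-type arrays, by 2.30-fold in GMP and 1.56-fold in MDP. Zfp36 encodes tristetraprolin, which binds AU-rich elements and speeds the decay of cytokine transcripts. It read 4.25 in Trib1-/- GMP and 5.39 in wild-type GMP, and 6.30 in Trib1-/- MDP and 6.29 in wild-type MDP. It was 2.21-fold lower in Trib1-/- GMP, while the MDP arrays differed by 0.01.

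Ier3, a small stress-induced protein that affects ERK and NF-kB signalling and cell survival, read 5.14 in Trib1-/- GMP and 6.25 in wild-type GMP, and 3.998 in Trib1-/- MDP and 4.36 in wild-type MDP. It was 2.15-fold lower in Trib1-/- GMP, and within each genotype MDP lay below GMP. Ier2, a nuclear protein of the early response, read 3.92 in Trib1-/- GMP and 4.22 in wild-type GMP, and 3.64 in Trib1-/- MDP and 4.31 in wild-type MDP. It was lower in the Trib1-/- array of both cell types, with differences of -0.30 in GMP and -0.67 in MDP.

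**Figure D1:**
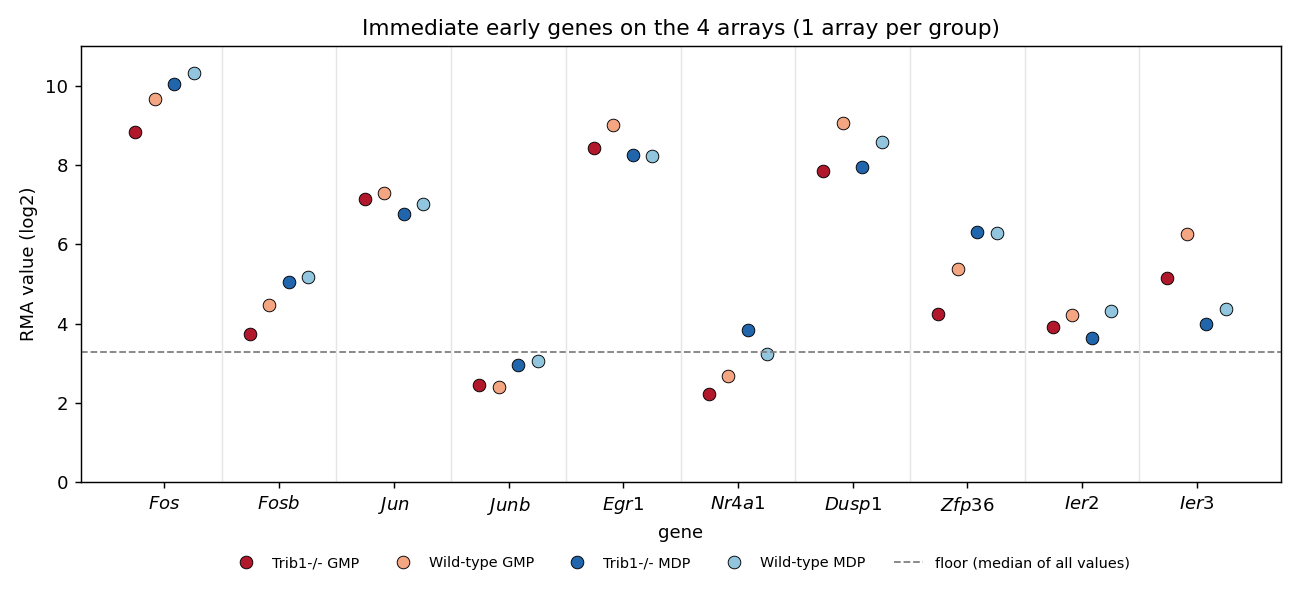
Log2 RMA values (vertical axis) of the 10 genes on the 4 arrays, 1 point per array, with the floor of 3.29 as a dashed line; levels of different genes are not comparable, because each probe set has its own affinity. Trib1-/- GMP is the lowest of the 4 points for Fos, Fosb, Nr4a1, Dusp1 and Zfp36, and all Junb points lie below the floor.

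The sequences just upstream are shown for the 3 genes that stood at least 2-fold apart in GMP (Dusp1, Zfp36 and Ier3), for Fos, and for Jun, whose level differed little. Each is the 250 bases before a gene start in the RefSeq promoter table (GRCm38.p6), written 5′ to 3′ along the gene's strand. Capitals mark matches on either strand to the cAMP response element TGACGTCA, its core TGACG, the TATA motif TATAAA and the CArG box that serum response factor binds; a full response element holds the core on both strands. The AP-1 motif TGANTCA was searched too.
Dusp1, chr17:26508473-26508722, minus strand: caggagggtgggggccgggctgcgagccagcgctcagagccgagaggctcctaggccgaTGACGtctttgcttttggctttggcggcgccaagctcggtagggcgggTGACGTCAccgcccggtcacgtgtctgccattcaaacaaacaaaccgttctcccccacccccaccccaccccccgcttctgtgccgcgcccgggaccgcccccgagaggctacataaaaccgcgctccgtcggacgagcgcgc
Zfp36, chr7:28379229-28379478, minus strand: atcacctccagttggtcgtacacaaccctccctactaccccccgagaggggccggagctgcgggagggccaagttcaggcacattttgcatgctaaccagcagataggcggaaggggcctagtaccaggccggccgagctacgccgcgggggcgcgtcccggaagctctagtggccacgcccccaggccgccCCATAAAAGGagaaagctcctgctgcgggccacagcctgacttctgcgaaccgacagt
Ier3, chr17:35821463-35821712, plus strand: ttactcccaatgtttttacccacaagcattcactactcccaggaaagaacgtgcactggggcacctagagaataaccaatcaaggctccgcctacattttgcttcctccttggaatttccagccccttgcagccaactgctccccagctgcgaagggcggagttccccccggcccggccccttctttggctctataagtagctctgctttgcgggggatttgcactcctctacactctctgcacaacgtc
Fos, chr12:85473640-85473889, plus strand: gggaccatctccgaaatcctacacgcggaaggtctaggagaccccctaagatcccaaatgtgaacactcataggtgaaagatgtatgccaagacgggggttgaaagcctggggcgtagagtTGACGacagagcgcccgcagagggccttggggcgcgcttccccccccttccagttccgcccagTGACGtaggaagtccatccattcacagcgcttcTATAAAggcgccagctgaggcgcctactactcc
Jun, chr4:95052223-95052472, minus strand: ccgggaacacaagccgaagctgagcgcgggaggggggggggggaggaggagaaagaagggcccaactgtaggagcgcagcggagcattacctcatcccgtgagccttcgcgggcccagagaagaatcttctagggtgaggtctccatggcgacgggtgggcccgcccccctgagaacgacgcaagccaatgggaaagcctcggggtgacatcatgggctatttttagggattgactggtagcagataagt

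The table held such a window for 8 of the 10 genes, and Egr1 and Ier2 were not matched. The full cAMP response element occurred in the Dusp1 window alone, 143 bases before the start, with a further core at 191, against 1.55% of the 32841 windows in the table. Its core occurred in 5 of the 8 windows (Dusp1, Fos, Fosb, Junb and Nr4a1), against 17.8% of all windows. The CArG box occurred in the Zfp36 window alone, 58 bases before the start (1.47% of all windows), and TATAAA in that of Fos alone, 33 bases before the start (12.4%). TGANTCA occurred in 0 of the 8 (6.75% of all windows). The windows of Ier3 and Jun held no exact match to any of the 5 motifs. The Jun window does hold tgacatca, a near match to TGACGTCA that was not counted. Only exact matches within these 250 bases were searched for, so variant sites and sites further from the start were not seen. The 3 genes at least 2-fold apart in GMP had no searched motif in common, and a match is a description of sequence, not a bound site.

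In GMP the comparison asks how the early response program differs when Trib1, a pseudokinase that brings C/EBP proteins to the COP1 ubiquitin ligase, is missing. The 9 genes that reached the floor all read lower in Trib1-/- GMP than in wild-type GMP, as did 55.2% of all 11653 such genes. These genes were chosen with earlier results of these data known, so comparisons with all genes are descriptions, not independent support. Nr4a1, at the floor only in Trib1-/- MDP, was below it on both GMP arrays, so 8 were lower once its values were raised to the floor. Of the 9 genes, 3, Dusp1 (-1.20), Zfp36 (-1.14) and Ier3 (-1.10), stood at least 2-fold lower. Over all genes, 3.16% were at least 2-fold lower and 0.481% higher by that much. With values raised to the floor these shares were 2.49% and 0.249%. The median difference of the 9 genes was -0.72, and that of all genes -0.06. Dusp1, Zfp36 and Ier3 had differences lower than all but 1.22%, 1.66% and 2.01% of genes, and Fos (-0.84) and Fosb (-0.72) lower than all but 5.49% and 8.12%. Egr1 (-0.60), Nr4a1 (-0.46), Ier2 (-0.30) and Jun (-0.17) were less far from the middle of all genes. Because bulk RNA was measured, fewer cells of a type with high levels and less RNA per cell cannot be told apart. Raising values below the floor to it could not alter Dusp1, Zfp36 and Ier3, which were above the floor on all arrays. With 32 added to the linear values only Dusp1 stayed at least 2-fold lower, with Zfp36 at -0.54 and Ier3 at -0.68. Of all genes, 0.129% were then at least 2-fold lower and 0.00858% higher.

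Other features of the GMP arrays moved with this difference. All 6 basophil and mast cell markers (Cpa3, Mcpt8, Gzmb, Fcer1a, Ms4a2 and Hdc) read lower in Trib1-/- GMP, 4 of them at least 2-fold, and their summed linear level was 126 in Trib1-/- GMP against 344 in wild-type GMP. In Trib1-/- GMP 5 of the 6 were above the floor, and in wild-type GMP all 6. The BioB and BioC hybridisation controls averaged 10.78 in Trib1-/- GMP and 10.42 in wild-type GMP over 10 probe sets. Erythroid markers were below the floor on both GMP arrays (0 of 4). The part of any of these in the differences of the immediate early genes was not tested.

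In MDP 6 of the same 9 genes read lower in Trib1-/- and 3 higher, where 48.5% of all genes read lower. At least 2-fold apart were 0 of the 9, where 1.53% of all genes were lower by that much and 1.1% higher. Ier2 (-0.67) and Dusp1 (-0.64) read lowest against wild-type MDP, lower than all but 5.52% and 6.08% of genes. Nr4a1 (0.61) was the highest, with its wild-type value below the floor. Ier3 (-0.36), Fos (-0.29), Jun (-0.25) and Fosb (-0.13) were lower by less than the SD between probe sets. Egr1 differed by 0.02 and Zfp36 by 0.01, and both turned to -0.06 and -0.04 under cyclic loess normalisation. Under it 8 of the 9 genes read lower. The median of the 9 genes was -0.25, against 0.01 for all genes. Mature macrophage markers moved with the genotype here: all 8 read lower in Trib1-/- MDP, 6 of them at least 2-fold, with a summed linear level of 85.7 against 354 in wild-type MDP. Of the 8, 5 were above the floor in Trib1-/- MDP and 6 in wild-type MDP, among them Vcam1 (3.90 in Trib1-/- and 7.11 in wild-type MDP), Mrc1 (4.24 and 6.46) and Cd163 (3.50 and 5.32). Of the C1q genes, C1qa and C1qc did not reach the floor on either MDP array, and C1qb (1.94 and 4.27) reached it in wild-type MDP. Their part in the values of the immediate early genes was not tested.

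**Figure D2:**
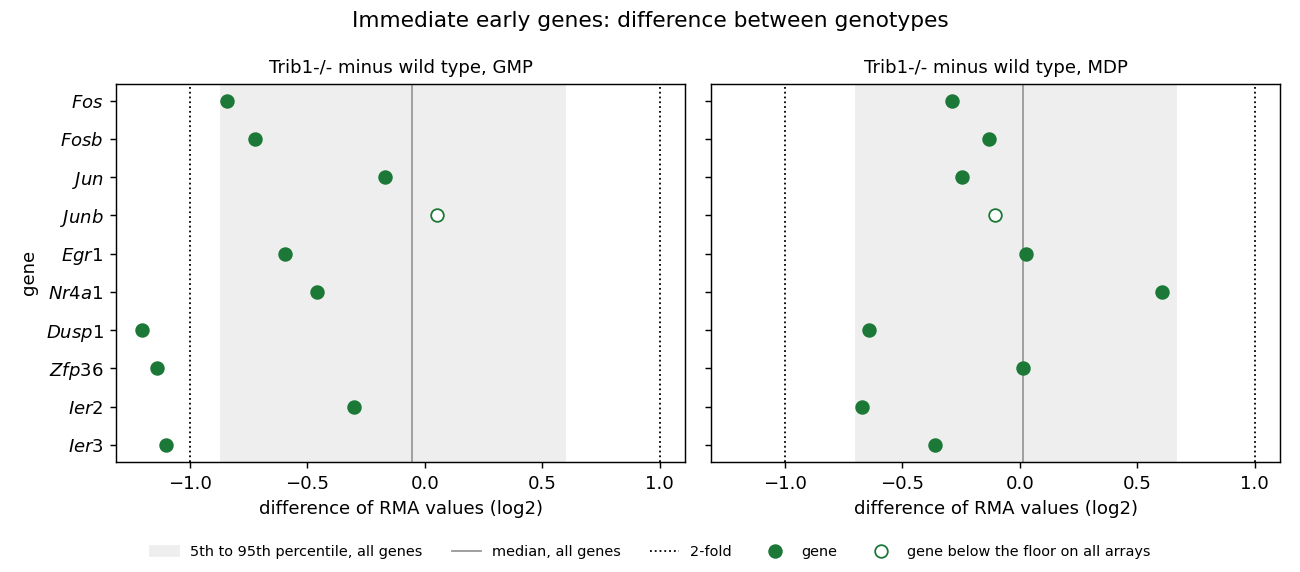
Difference of log2 RMA values between Trib1-/- and wild type (horizontal axis) for each gene, in GMP on the left and MDP on the right, with 1 array per group. The grey band holds the middle of all 11653 genes, from the 5th to the 95th percentile (-0.87 to 0.60 in GMP, -0.70 to 0.66 in MDP): Dusp1, Zfp36 and Ier3 lie beyond it and beyond 2-fold in GMP, and no gene does in MDP. Junb, below the floor on all arrays, is an open circle.

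Between the cell types, the genes split. Fos, Fosb and Zfp36 were higher in MDP than in GMP within both genotypes, and Ier3 was lower. Nr4a1 read higher too, but in wild type both of its values were below the floor. Egr1 and the brighter probe set of Jun also read lower in both genotypes. For Egr1 in Trib1-/-, and for Jun in both, the difference was within the SD between probe sets. Among Trib1-/- arrays 4 of the 9 were at least 2-fold higher in MDP: Zfp36 by 4.16-fold, Nr4a1 by 3.05-fold, Fosb by 2.46-fold and Fos by 2.31-fold. Over all genes, 2.75% were this far above GMP in that comparison and 4.08% this far below. The only gene at least 2-fold lower was Ier3, by 2.21-fold. Among wild-type arrays the same 4 genes were higher by less than 2-fold (Zfp36 by 0.90, Fosb by 0.71, Fos by 0.66 and Nr4a1 by 0.54), where 4.16% of all genes were at least 2-fold higher. Ier3 was 3.70-fold lower in wild-type MDP, where 12.4% of all genes were at least 2-fold lower. Nr4a1 lay below the floor on both GMP arrays. With such values raised to the floor its Trib1-/- difference was 0.54 in place of 1.61, and its wild-type difference was 0. This leaves 3 genes at least 2-fold higher among Trib1-/- arrays. In that setting 2.12% of all genes were at least 2-fold higher and 3.08% lower.

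Egr1 differed between cell types by -0.16 among Trib1-/- arrays and by -0.78 among wild-type arrays. Dusp1 differed by 0.09 and -0.47 in the same comparisons, and Ier2 by -0.28 and 0.09. For Jun the brighter probe set gave -0.36 and -0.28, and the other 0.06 and -0.34. The SD between probe sets was 0.422 among Trib1-/- arrays and 0.543 among wild-type arrays. The median over the 9 genes was 0.09 in each comparison, against -0.01 and -0.04 for all genes. The wild-type median was -0.28 with the floor at the 75th percentile, which leaves 7 genes, and 0 with values raised to the floor. The Trib1-/- comparison uses the same Trib1-/- GMP array as the genotype comparison in GMP, so a low value on that array enters both. That array was the lowest of the 4 for 5 of the 9 genes, among them Nr4a1, which was below the floor on both GMP arrays. Wild-type GMP was the lowest for none of the 9. The same shares over all genes were not counted, so these counts have no background to be read against.

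The arrays of the cell types differed in other respects as well. The summed linear level of the basophil and mast cell markers was 38.2 in Trib1-/- MDP against 126 in Trib1-/- GMP, and 42.6 in wild-type MDP against 344 in wild-type GMP, with 1 of the 6 above the floor on each MDP array. That of the mature macrophage markers was 85.7 in Trib1-/- MDP against 79.9 in Trib1-/- GMP, and 354 in wild-type MDP against 96.0 in wild-type GMP. The BioB and BioC controls averaged 10.93 in Trib1-/- MDP against 10.78 in Trib1-/- GMP, and 11.05 in wild-type MDP against 10.42 in wild-type GMP. The 3′ minus 5′ difference of Gapdh was 1.66 in Trib1-/- MDP against 1.20 in Trib1-/- GMP, and 1.44 in wild-type MDP against 1.06 in wild-type GMP. That of actin went the other way in Trib1-/- (1.67 in MDP against 1.91 in GMP) and was 2.01 on both wild-type arrays. Their part in the cell type differences of the immediate early genes was not tested.

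**Figure D3:**
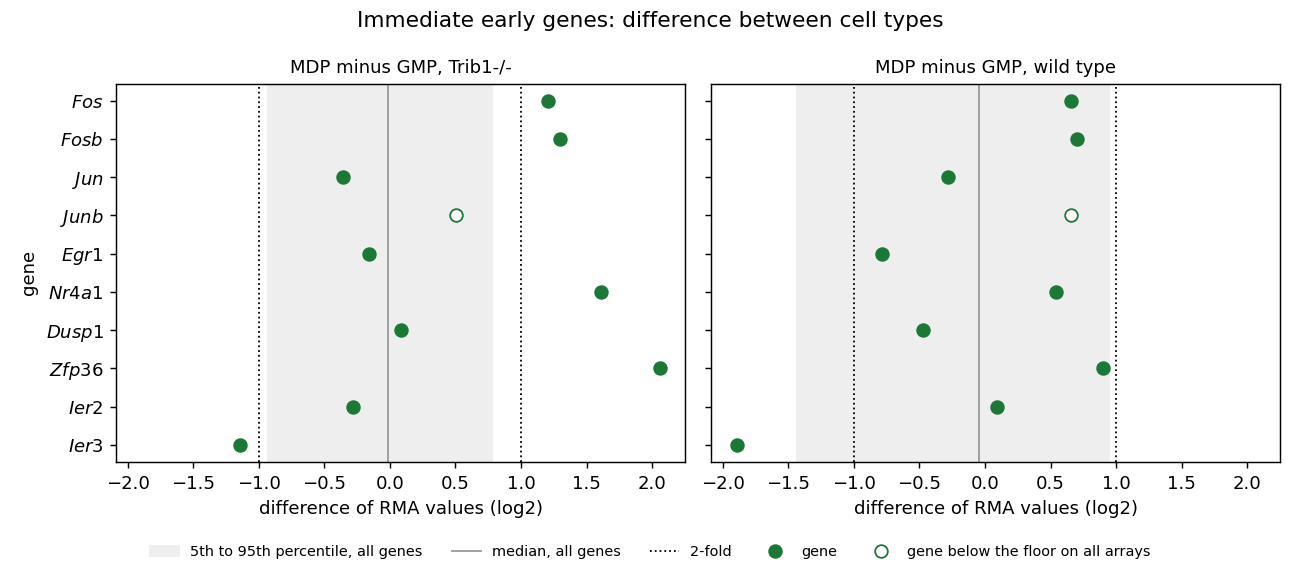
Difference of log2 RMA values between MDP and GMP (horizontal axis) for each gene, among Trib1-/- arrays on the left and wild-type arrays on the right, 1 array per group, with the 5th to 95th percentile of all genes in grey (-0.93 to 0.78 on the left, -1.43 to 0.95 on the right). Zfp36, Nr4a1, Fosb and Fos lie beyond 2-fold on the right-hand side of the Trib1-/- panel and inside 2-fold in the wild-type panel, and Ier3 lies beyond 2-fold on the lower side in both.

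Relatives of these genes and other parts of the pathway were read from 6 lists holding 81 genes, of which 78 were listed on the array and 68 reached the floor. Between the GMP genotypes 1 of the 68 was at least 2-fold apart (over all genes 3.16% lower and 0.481% higher), and between the MDP genotypes 0 were (1.53% and 1.1%), so neither count was above the share of all genes. That gene was Ccl3, a chemokine whose transcript carries the AU-rich elements that tristetraprolin binds, at 5.24 in Trib1-/- GMP and 6.41 in wild-type GMP (-1.17), and 6.33 in Trib1-/- MDP and 6.51 in wild-type MDP. Its neighbour in function, the chemokine gene Ccl4, read 5.18 in Trib1-/- GMP and 6.16 in wild-type GMP (-0.98), and 6.35 in Trib1-/- MDP and 6.20 in wild-type MDP. For both chemokines Trib1-/- GMP stood apart below the other arrays. Among the tristetraprolin targets 7 of 10 reached the floor, with medians of -0.04 in GMP and 0.03 in MDP. Cxcl1 differed by -0.64 in GMP and -0.59 in MDP. Its other probe sets read -0.20 and -0.49 in GMP, but 0.98 and 0.35 in MDP. Csf2 (0.89 and -0.78) reached the floor on 1 array only.

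The other AP-1 genes had medians of 0.03 in GMP and -0.10 in MDP over 8 of 11 genes. Jdp2, which represses AP-1, differed by -0.80 in GMP, Atf3, a stress-induced partner of Jun, by 0.54 in GMP, and Batf3 by -0.44 in MDP. The second probe set of Jdp2, below the floor throughout, read 0.003 in GMP. Jund, the least inducible Jun gene, differed by -0.01 in GMP and -0.23 in MDP, and a weak second probe set read -0.02 and 0.43. In the EGR and NR4A families the medians over 6 of 7 genes were 0.29 in GMP and 0.004 in MDP. Egr2, which shares its DNA site with Egr1, differed by -0.73 in GMP and its other probe set by -1.02. Nab1, a co-repressor of the Egr proteins, differed by 0.83 in GMP (0.18 and 0.38 with its other probe sets), and Egr4 by 0.75 in MDP.

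Other early response genes, Trib1 among them, had a median of 0.01 in GMP and -0.18 in MDP over 22 of 24 genes. Rhob, a small GTPase gene, differed by -0.95 in GMP and -0.56 in MDP, Myc by -0.78 and -0.17, and the antiproliferative gene Btg2 by -0.70 and 0.07. The second probe set of Btg2, below the floor on all arrays, went the other way in GMP (0.41). Other phosphatases of the Dusp family had medians of 0.02 and -0.36 over 8 of 9 genes. Dusp3 differed by -0.80 in GMP, where its Trib1-/- value (2.71) was below the floor. Its other probe sets, below the floor on all arrays, read from -0.13 to 0.06. Dusp8 differed by 0.68 in GMP, where its wild-type value (3.22) was below the floor. Another of its probe sets, below the floor on all arrays, read -0.76. Dusp7 differed by 0.55 in MDP with other probe sets at 0.75 and -0.03. Upstream kinases and transcription factors had medians of 0.03 in GMP and 0.22 in MDP over 18 of 21 genes. Srf, which encodes serum response factor, differed by -0.07 and 0.05, while its other probe set, below the floor on all arrays, read 0.92 and 0.10. Elk3, a ternary complex partner of serum response factor, differed by -0.98 in GMP with other probe sets from -0.63 to 0.26. Rps6ka5, a kinase that phosphorylates histone H3 and CREB, differed by 0.77 in MDP. Its other probe sets read 0.36 and, below the floor on all arrays, -0.59. Crem differed by 0.53 in GMP with other probe sets, all below the floor, from -0.27 to -0.09.

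**Figure D4:**
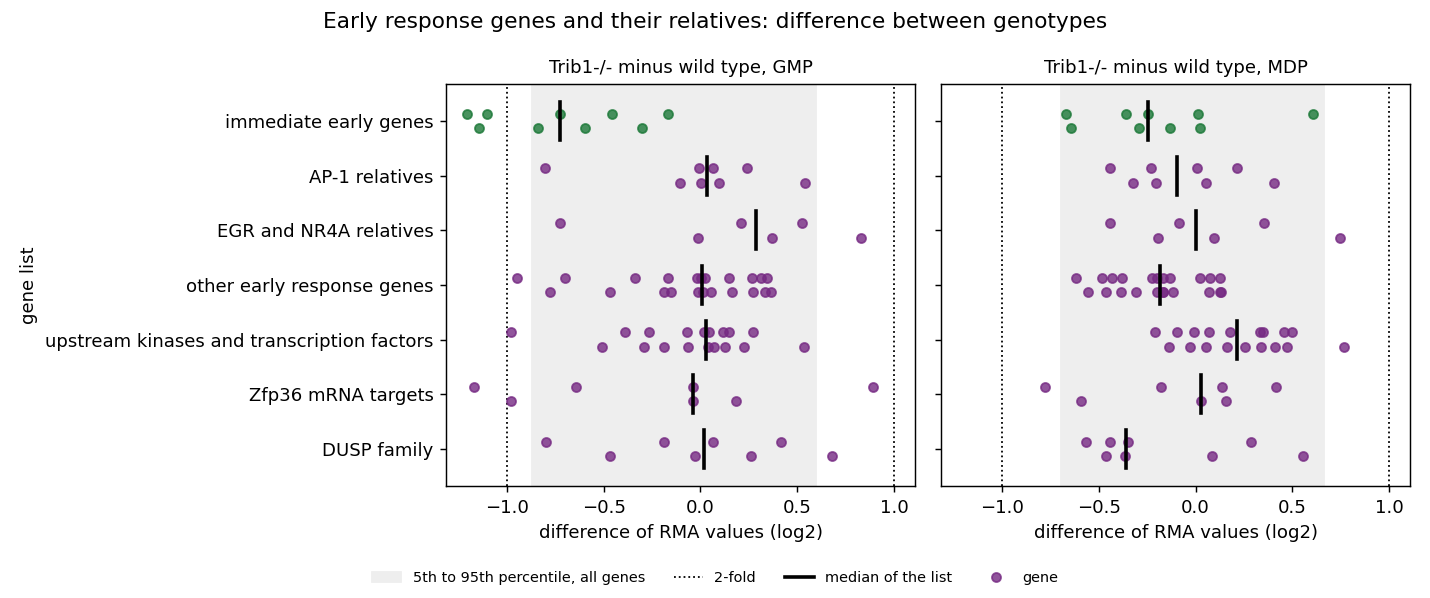
Difference of log2 RMA values between Trib1-/- and wild type (horizontal axis) for the 9 immediate early genes above the floor and for the genes of the 6 related lists, in GMP on the left and MDP on the right. Each point is 1 gene and each black bar a list's median; the median of the immediate early genes is -0.72 in GMP, and those of the other lists lie from -0.04 to 0.29.

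The genes whose 4 values were most like the median profile of the 9 immediate early genes, by Euclidean distance after centring each gene on its own mean, were Haspin, Mrpl28, Kif20a, Tspan14 and Dcaf10, at distances of 0.165 to 0.180 among 9257 genes above the floor on all 4 arrays. Mrpl28, for instance, read 4.93 in Trib1-/- GMP and 5.62 in wild-type GMP, and 5.11 in Trib1-/- MDP and 5.62 in wild-type MDP. The immediate early genes themselves lay at distances of 0.435 for Ier2 to 1.71 for Ier3 from their own median profile. The named genes were picked as the nearest of the 9257, so their distances are no yardstick for these. How distances spread over all genes was not summarised, and how closely the median profile describes each immediate early gene was not judged.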

How the data were processed

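RNA of 4 sorted progenitor populations was hybridised to 1 Affymetrix array each. Trizol-extracted total RNA was amplified with the NuGEN Ovation system, per the labels' protocols, which can widen the spread of weak genes. The deposited values were made by the authors with RMA, per the submitters' processing notes, and are taken as log2 values from their range (0.141 to 14.5); the scale is not stated in the file. RMA equalises the distributions of the arrays and so hides a difference in total RNA per cell. Differences were formed from these values with pandas 2.3.3, with no test, and the counting was tested on simulated data.

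The members and lists were chosen with earlier results of these data known. The probe set with the highest mean stood for each gene, and a gene was counted where its highest value reached the floor (3.29). In the lists, genes at least 2-fold apart between genotypes were named, with up to 3 others of the largest difference; Jund and Srf were added after their values were seen. The 9 alternatives were size rules of 1.5-fold and 4-fold, a floor at the 75th percentile (4.78), values raised to the floor, the mean of probe sets, leaving out cross-hybridising suffixes, cyclic loess (limma 3.58.1, 3 iterations), median centring, and 32 added to linear values. Probe sets with several gene symbols or none were not used.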

Additional observations from a re-analysis of the deposited data

Results flagged for a closer look

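For 5 probe sets the difference between Trib1-/- and wild type had opposite signs in GMP and in MDP. Each sign rests on 1 array per group, and the difference between the cell types was not tested. Nr4a1 read -0.46 in GMP and 0.61 in MDP, and Zfp36 -1.14 in GMP and 0.0119 in MDP. Egr1 read -0.60 and 0.0245, the dimmer probe set of Jun -0.35 and 0.0503, and Junb, below the floor on all arrays, 0.0532 and -0.11. The MDP values of Zfp36, Egr1 and Jun and both Junb values were smaller than the SD between probe sets, and the GMP values of Nr4a1 were below the floor.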

How the results depend on the processing

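Under the alternatives that applied, no median of the immediate early genes moved by more than the SD between probe sets in the 4 comparisons. That SD describes single probe sets and is a loose yardstick for a median of several genes. The wild-type cell type median (0.09) turned to -0.28 with the floor at the 75th percentile and to 0 with values raised to the floor. The GMP genotype median ran from -0.84 to -0.54. At 1.5-fold the counts of genes apart were 6 between the GMP genotypes, 3 between the MDP genotypes and 5 between the wild-type cell types, in place of 3, 0 and 1. Of all genes, 13.2% were then lower and 5.28% higher between the GMP genotypes, and 7.61% and 7.16% between the MDP genotypes. Between the wild-type cell types these shares were 24.8% and 15.9%. At 4-fold the counts of genes apart were 0 between the GMP genotypes and 0 between the wild-type cell types, and 1 between the Trib1-/- cell types in place of 5. Of all genes, 0.0515% were then lower and 0.00858% higher between the GMP genotypes. The shares were 1.3% and 0.318% between the wild-type cell types, and 0.481% and 0.378% between the Trib1-/- cell types. With 32 added to the linear values the 2-fold counts were 1 between the GMP genotypes and 2 between the Trib1-/- cell types. The shares of all genes fell as well, to 0.129% lower and 0.00858% higher between the GMP genotypes. Between the Trib1-/- cell types they were 0.558% and 0.523%. Median centring gave a 2-fold count of 2 between the wild-type cell types, where 9.6% of all genes were then lower and 6.69% higher. It moved the median of all genes by 0.10 in the GMP genotype comparison and 0.13 between the wild-type cell types. Under it 69.9% of all genes at least 2-fold apart between the GMP genotypes were lower, in place of 86.8%, and between the wild-type cell types 58.9% were lower in MDP, in place of 74.9%. Of 244 values of single genes under an alternative, 14 moved by more than the SD between probe sets and 0 of those at least 2-fold apart changed sign. Many of the 244 could not change, so this share is no measure of stability. A higher floor alters no single value, only Jun has 2 probe sets, and only Nr4a1 of the counted genes has values below the floor. All 14 moves came with values raised to the floor, for Nr4a1, or with 32 added to the linear values. No paired analysis was possible because each group has 1 array. Weak genes, Nr4a1 and Junb above all, lie near background, where a difference is uncertain.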

Other observations

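Several related genes differed between the cell types in both genotypes. Myc, the growth-promoting transcription factor gene, was lower in MDP than in GMP, with differences of -1.49 among Trib1-/- arrays and -2.10 among wild-type arrays, as were Rhob (-1.25 and -1.64), the ERK-activated kinase gene Rps6ka3 (-1.06 and -1.45) and Srf (-0.92 and -1.04). The second probe set of Srf, below the floor, read -0.13 and 0.69. Dusp5, a nuclear ERK phosphatase gene, was higher in MDP (1.29 and 1.18), as was the early response gene Csrnp1 (1.02 and 1.05). Nr4a2, a relative of Nr4a1, was higher in MDP by 0.41 among Trib1-/- arrays and 1.38 among wild-type arrays, and its 5 other probe sets read from -0.28 to 1.84 and from 0.03 to 1.36. These genes were chosen after their values were seen.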
